A study of Pleurotus ostreatus with 53 samples.

Results

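In the oyster mushroom Pleurotus ostreatus, 222 copies of Gypsy retrotransposons were described that had no CG methylation value in any PC9 library. They were taken from 683 copies of all Gypsy families other than Gypsy_1, Gypsy_2 and Gypsy_20. All transposable elements (TEs) together had 1051 listed copies. The copies were chosen by the PC9 methylation columns, so the missing PC9 value is how the copies were chosen and not a finding. The remaining 461 copies had a value in all 3 PC9 libraries, and 0 copies had a value in 1 or 2 of them. The coverage behind the values is unknown, so how near a copy lay to the limit of the rule could not be judged. Why the value is missing, and whether the copies are present in the PC9 genome, was not tested.

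Gypsy elements are retrotransposons flanked by long terminal repeats, and they move by copying their RNA into DNA. Fungi can restrain them by methylation of cytosines, mostly in the CG context, and by small RNAs that match the element. Both often accompany low transcript levels, and old copies decay into short fragments that keep only part of the element.

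PC15 and PC9 are monokaryotic strains, with 1 kind of nucleus per cell, grown as mycelium (the vegetative threads). HyB, labelled N001_HyB, is a dikaryon from mating PC9 with PC15, also sampled as mycelium, so that its cells hold a nucleus of each strain. The dikaryon N001 was taken at 3 stages, namely mycelium, primordium (the early fruiting structure) and fruitbody. Each of the 6 groups had 3 libraries for each assay (poly(A) mRNA, small RNA, bisulfite sequencing), except primordium with 2 for bisulfite. In a dikaryon, fewer nuclei that carry a copy and less RNA per copy cannot be told apart in bulk libraries.

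Depth was 19628882 to 30123572 reads per mRNA library and, counting reads in genes and TE copies, 191411 to 5746479 per small RNA library. Levels are given in RPM, the reads of a copy per 1000000 reads of these totals. PC9 small RNA replicate 1 stood apart: 32.3% of its reads lay in TE copies, against 6.93% and 7.17% in replicates 2 and 3. Main results that rest on it are given with and without it or by library, except where stated.

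The 222 copies were mostly short. Their median length was 237 bases (lowest 19, highest 18249), and 156 of them were under 500 bases, while the median of the other 461 Gypsy copies was 668 bases. Only 13 of the 222, or 5.86%, reached 4000 bases, against 25.4% of the other Gypsy copies. The longest was a Gypsy_12 copy on scaffold 3 (771021 to 789270), which spans 18249 bases and holds 2 shorter Gypsy_12 copies of the list. Next in length were 2 Gypsy_8 copies of 11694 and 11693 bases, on scaffold 3 (718085 to 729779) and scaffold 2 (366838 to 378531), then Gypsy_32 on scaffold 6 (2602025 to 2613538) and Gypsy_3 on scaffold 6 (2394553 to 2404581).

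The copies came from 47 of the 49 families and from all 11 scaffolds that list Gypsy copies of these families, where they made up 25.2% (scaffold 7) to 43.2% (scaffold 10) of such copies. The 6 families with at least 10 copies were Gypsy_9 with 16, Gypsy_7 and Gypsy_25 with 14 each, Gypsy_18 with 12, Gypsy_4 with 11 and Gypsy_10 with 10, 77 copies together. In Gypsy_18 these were 54.5% of the family's listed copies, and in Gypsy_10 they were 34.5%. All copies of Gypsy_48 (2 copies) and Gypsy_50 (1 copy) lacked a PC9 value. Some copies lay side by side: 17 runs of at least 3 neighbours with no other TE copy between them held 56 copies. The longest run held 5 copies, Gypsy_33, Gypsy_8, Gypsy_18, Gypsy_41 and Gypsy_17, on scaffold 2 (366549 to 380371). Listed positions overlapped those of another TE copy for 79 of the 222, and those of another copy of the list for 29, so reads shared between them could not be told apart.

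Of the 222 copies, 165 had a methylation value in all 14 bisulfite libraries of the 5 other groups, and 46 had no value in any library. The 46 had a median length of 90 bases. Among Gypsy copies of every family, 169 lacked a value only in PC9, 3 lacked one only in PC15, and 0 lacked one only in any of the other groups.

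Transcripts of the 222 copies were most abundant in PC15 and least abundant in PC9. Their summed mRNA was 477, 438 and 439 RPM in the PC15 libraries. In PC9 the sums were 9.46, 6.63 and 7.33 RPM. HyB lay between the monokaryons, with 167, 146 and 136 RPM. The N001 sums were 62.5 ± 6.59 RPM in mycelium, 70.8 ± 11.3 RPM in primordium and 62.7 ± 9.98 RPM in fruitbody (SD, n = 3 each), so the 3 stages overlapped each other and lay between HyB and PC9. Gypsy_12 on scaffold 7, Gypsy_3 of 10028 bases, Gypsy_38 on scaffold 4 and Gypsy_32 on scaffold 6 together held 65.5% of the sum in PC15, 79.6% in HyB, 55.4% in N001 mycelium and 7.86% in PC9. Without these 4 copies the sums were 155 ± 9.55 RPM in PC15, 7.17 ± 1.17 in PC9, 30.8 ± 9.05 in HyB and 27.96 ± 4.44 in N001 mycelium (SD, n = 3), so HyB and N001 mycelium then overlapped. Per kb of listed length, the copies had 2.21 ± 0.107 RPM in PC15 and 0.0382 ± 0.00721 RPM in PC9, and the other Gypsy copies had 5.01 ± 0.0658 and 0.197 ± 0.0208 RPM per kb (SD, n = 3). The 222 copies therefore gave 3.09% of all TE mRNA reads in PC15 and 0.343% in PC9, and between 3.07% and 5.68% in the dikaryon groups.

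**Figure D1:**
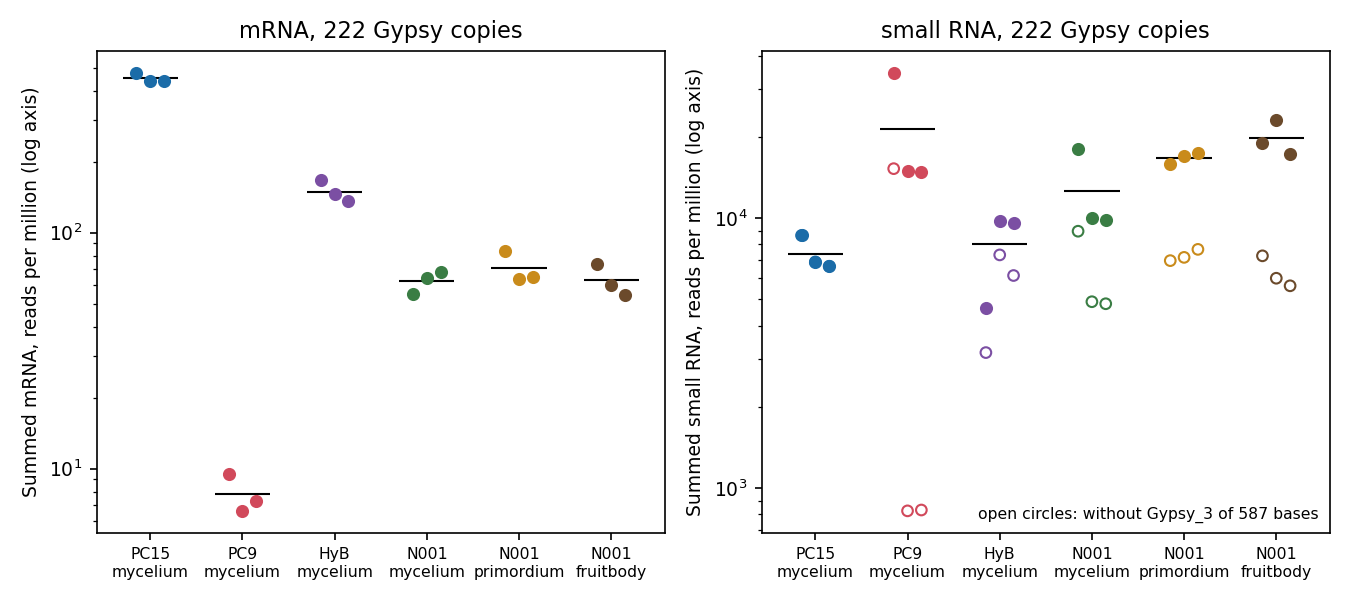
Summed mRNA (left) and small RNA (right) of the 222 Gypsy copies in RPM on log axes, with 1 filled point per library and a line at the group mean. PC15 mRNA lies near 451 and PC9 mRNA near 7.80 RPM. Open circles on the right leave out the Gypsy_3 copy of 587 bases, and the PC9 libraries 2 and 3 then fall below all the others.

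Most copies gave few reads or none. Over the 3 libraries of a group, 140 copies had at least 1 mRNA read in PC15, 55 in PC9, 83 in HyB, 51 in N001 mycelium, 55 in primordium and 51 in fruitbody. Of the other 461 Gypsy copies, 418 had an mRNA read in PC15 and 224 in PC9. Small RNA reads were found on about as many copies in PC15 (139) and on more in the dikaryon groups, with 174 in fruitbody. In PC9 the count was 142, but it rested mostly on replicate 1. By library, 133, 52 and 41 copies had a small RNA read in PC9, against 104, 80 and 80 in PC15. Taking both kinds of read together, 158 of the 222 copies had a read in a PC9 library and 64 had none, 3 of which had no read in any library. Both counts include PC9 small RNA replicate 1 and were not made without it. Among the 24 copies with at least 100 PC15 mRNA reads, 5 had 0 PC9 mRNA reads, 8 had 1 to 3 and 11 had more than 3.

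The comparison of PC9 with PC15 sets one monokaryon beside the other. The largest PC15 transcript came from Gypsy_12 on scaffold 7 (2024072 to 2033411), which had 140, 106 and 126 RPM in PC15. Its PC9 libraries held 0.606, 0.164 and 0.134 RPM. The groups did not overlap, and the log2 difference was -8.65 ± 0.611 (SE; edgeR's quasi-likelihood test with Benjamini-Hochberg, BH, adjustment, adjusted p = 6.42e-13).

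Gypsy_3 on scaffold 6 (2394553 to 2404581) had 163, 92.9 and 74.96 RPM in PC15 and 0.162, 0.0409 and 0 RPM in PC9. Its difference was -10.53 ± 0.803 on the log2 scale (edgeR, BH-adjusted p = 2.545e-12). Gypsy_32 on scaffold 6, with 19.8, 21.5 and 21.7 RPM in PC15, had 1 read in all 3 PC9 libraries (log2 difference -10.10 ± 0.890, edgeR, BH-adjusted p = 3.095e-11). Gypsy_38 on scaffold 4 (125810 to 133690) kept a few reads, with 8.25, 63.6 and 51.6 RPM in PC15 and 0.202, 0.286 and 0.268 RPM in PC9. No PC9 library reached the lowest PC15 library for any of these copies.

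Shorter copies fell as well. Gypsy_38 on scaffold 5 (3412179 to 3412682), of 503 bases, had 10.7, 12.4 and 12.5 RPM in PC15 and 1 read in PC9 (log2 difference -9.28 ± 0.869, edgeR, BH-adjusted p = 1.115e-10). Gypsy_33 on scaffold 10 (139493 to 139789) had 5.22, 4.44 and 3.81 RPM in PC15 and 0 reads in PC9, which is at least 108-fold higher in PC15 when the PC9 group is set to a floor of 3 reads. By the same floor the Gypsy_3 copy of 587 bases on scaffold 6 (2645656 to 2646243), with 4.78, 5.37 and 3.90 RPM in PC15 and 0 reads in PC9, was at least 112-fold higher in PC15. Gypsy_9 of 145 bases on scaffold 5 (3003270 to 3003415) had 1.39, 4.01 and 6.10 RPM in PC15 and 0 reads in PC9, at least 88.4-fold lower. The Gypsy_3 copy of 587 bases and this Gypsy_9 copy passed the test's filter on low counts through PC15 alone, so they were bound to be high there.

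A few copies went the other way or had a difference that did not pass the test, which does not show that they stayed level. Gypsy_45 on scaffold 11 (1348453 to 1349970) had 0.525, 0.368 and 0.760 RPM in PC9 and 0.219, 0 and 0.0424 RPM in PC15 and rose by 2.53 ± 0.857 on the log2 scale (edgeR, BH-adjusted p = 0.00726). That call was lost without PC15 replicate 2 (BH-adjusted p = 0.0747) and without PC15 replicate 3 (BH-adjusted p = 0.0631). Gypsy_51 on scaffold 4 (3255893 to 3255972), a fragment of 79 bases, had 18 reads in PC9 and 0 in PC15, which is at least 6.24-fold higher, but 1 PC9 library was at 0. Gypsy_10 on scaffold 7 (380912 to 382471) had 1.495, 0.491 and 1.21 RPM in PC9 and 1.204, 2.18 and 1.91 RPM in PC15, and its difference did not pass the test (edgeR, BH-adjusted p = 0.303). Gypsy_19 on scaffold 10 (684963 to 685209) had 0.849, 1.15 and 1.12 RPM in PC9 and 1.71, 1.07 and 1.69 RPM in PC15 (edgeR, BH-adjusted p = 0.486). Gypsy_45 on scaffold 10 (1066579 to 1066733), of 154 bases, had 0.889, 0.532 and 0.894 RPM in PC9 and 0.146, 0.469 and 0.296 RPM in PC15, with no overlap, but its difference did not pass the test (edgeR, BH-adjusted p = 0.0861).

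Only 36 of the 222 copies passed the filter on low counts, 16 of them through the PC15 libraries alone, and the other 186 were not tested. Of the 36, 29 were lower and 2 higher in PC9, beside 84.8% lower and 3.74% higher (88.6% in either direction) among all 428 TE copies tested. A copy that passed through PC15 alone was bound to be high there, and these 16 gave 14 of the falls. Of the 20 others, 15 were lower and 2 higher, beside 70.5% lower and 7.77% higher over the TE copies that did not pass through 1 monokaryon alone. The groups overlapped for 2 of the 31. The median log2 difference of the 36 was -7.10, or -4.84 with the 12 copies that were at 0 in a group set to the bound of 3 reads. Over all TE copies tested the same medians were -7.36 and -5.98. Scaled inside the TE table by TMM, where the median of all TE copies became -3.73, 18 of the 36 were lower and 7 higher.

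In HyB, which carries both parental kinds of nucleus, the same comparison with PC15 was less uniform. Gypsy_32 on scaffold 6 had 27.9, 16.96 and 16.2 RPM in HyB, a level that overlapped PC15 (log2 difference -0.05 ± 0.520, edgeR, BH-adjusted p = 0.939). Gypsy_38 on scaffold 4 had 60.3, 46.2 and 43.3 RPM in HyB, also within the PC15 range. Gypsy_12 on scaffold 7 had 33.7, 49.6 and 45.2 RPM in HyB and fell by 1.53 ± 0.435 on the log2 scale relative to PC15 (edgeR, BH-adjusted p = 0.00217).

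Gypsy_3 of 10028 bases on scaffold 6 had 3.77, 6.37 and 6.24 RPM in HyB, and fell by 4.34 ± 0.574 (log2; edgeR, BH-adjusted p = 2.89e-07). The Gypsy_3 copy of 587 bases had 1 read in HyB (log2 difference -7.93 ± 1.14, edgeR, BH-adjusted p = 2.62e-06). Gypsy_13 on scaffold 8 (2282198 to 2284214) had the largest called fall, from 3.17, 14.6 and 14.7 RPM in PC15 to 0.0349, 0.0509 and 0 RPM in HyB (log2 difference -8.31 ± 1.10, edgeR, BH-adjusted p = 6.15e-07). This copy and the Gypsy_3 copy of 587 bases passed the filter on low counts (minimum 0.423 RPM) through PC15 alone. They were bound to be high there, so the direction of their falls is no separate result. The 2 copies that rose were Gypsy_51 on scaffold 4, with 0.419, 2.04 and 1.20 RPM in HyB against 0 in PC15 (at least 27.7-fold), and Gypsy_45 on scaffold 11, with 0.489, 0.764 and 0.624 RPM in HyB (log2 difference 2.71 ± 0.857, edgeR, BH-adjusted p = 0.00521, and 0.0600 and 0.0524 without PC15 replicate 2 or 3).

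In all, 19 of the 36 tested copies were lower and 2 higher in HyB than in PC15, beside 73.4% lower and 4.44% higher (77.8% in either direction) over all TE copies tested. The 16 copies that passed the filter through PC15 alone gave 13 of the 19 falls. Of the 20 others, 6 were lower and 2 higher, beside 50.3% lower and 8.81% higher over the TE copies that did not pass through 1 monokaryon alone. The median log2 difference of the 36 was -1.95 and that of all TE copies tested was -3.66. Without HyB replicate 1 the count was 30 lower and 2 higher, and the medians were -4.13 and -4.36. With TMM scaling inside the TE table, which moved the median of all TE copies to -1.11, 7 of the copies were lower and 10 higher.

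**Figure D2:**
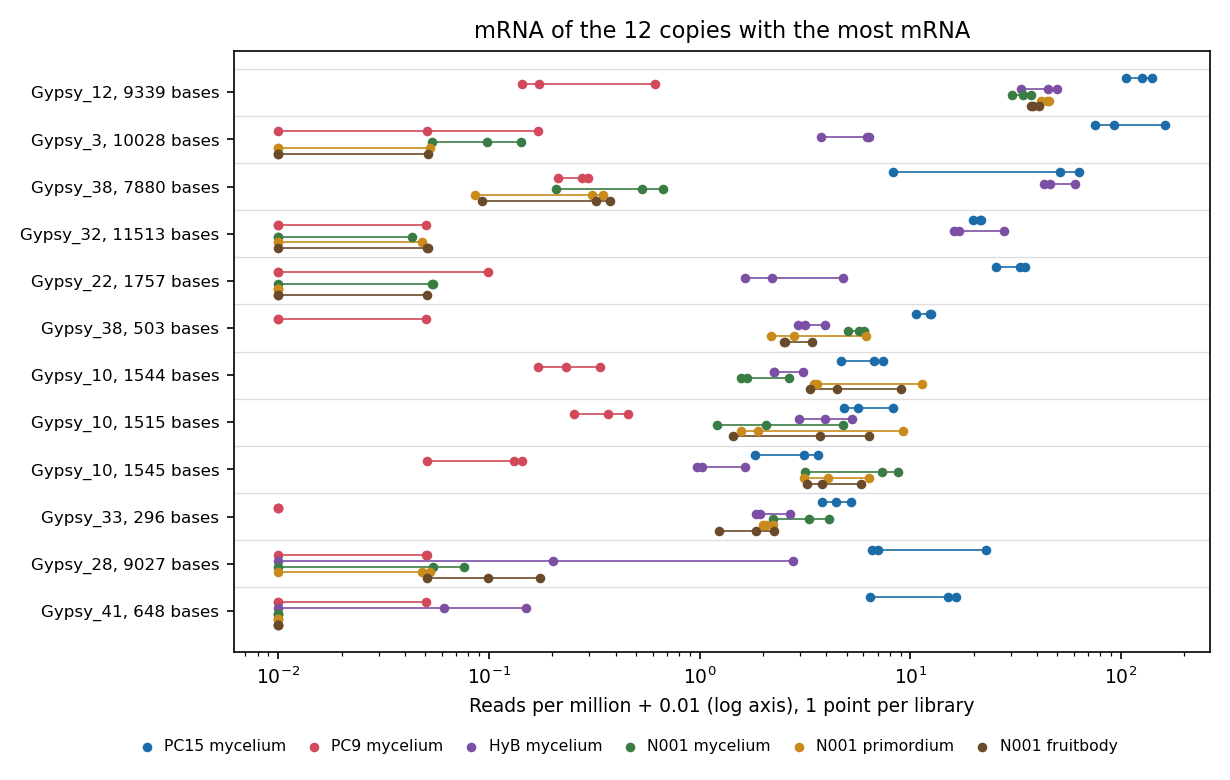
mRNA of the 12 copies with the highest mean level over the 6 groups, in RPM plus 0.01 on a log axis, with 1 point per library, coloured by group. Gypsy_32 and Gypsy_38 of 7880 bases have HyB points beside the PC15 points while PC9 and N001 points lie below 1, and Gypsy_12 of 9339 bases keeps N001 points between 30.3 and 45.3.

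N001 mycelium is the dikaryon compared with HyB at the same stage. Gypsy_32 on scaffold 6 and Gypsy_38 on scaffold 4, whose HyB levels overlapped PC15, had few reads in N001. Gypsy_32 on scaffold 6 had 0.0332, 0 and 0 RPM in N001 mycelium, a log2 difference of -10.13 ± 0.889 from HyB (edgeR, BH-adjusted p = 1.57e-10). Gypsy_38 on scaffold 4 had 0.199, 0.526 and 0.663 RPM (log2 difference -6.76 ± 0.736, edgeR, BH-adjusted p = 6.97e-09). Gypsy_12 on scaffold 7 was different, with 30.3, 37.4 and 34.3 RPM in N001 mycelium, 41.9, 44.5 and 45.3 RPM in primordium and 40.8, 38.1 and 37.5 RPM in fruitbody. Its N001 mycelium level overlapped HyB (log2 difference -0.33 ± 0.427, edgeR, BH-adjusted p = 0.595).

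Higher in N001 mycelium than in HyB was Gypsy_10 on scaffold 9 (258830 to 260375), with 3.15, 7.36 and 8.71 RPM against 1.01, 0.968 and 1.63 RPM (log2 difference 2.41 ± 0.607, edgeR, BH-adjusted p = 0.00168). Gypsy_38 on scaffold 7 (2980886 to 2981008), a fragment of 122 bases, also rose, from 0.105, 0 and 0 RPM to 0.564, 0.613 and 0.398 RPM (log2 difference 3.52 ± 1.13, edgeR, BH-adjusted p = 0.0124). A fragment of 90 bases, Gypsy_47 on scaffold 7 (2838470 to 2838560), had 0.0349, 1.17 and 1.01 RPM in HyB and 0 in N001 mycelium (edgeR, BH-adjusted p = 0.00167, and 0.0860 by DESeq2). Of the 36 tested copies, 9 were lower and 2 higher, beside 37.6% lower and 1.64% higher (39.3% in either direction) over all TE copies tested. The median log2 difference was -1.89 for the 36 and -1.90 for all TE copies, or -0.87 and -1.79 with groups at 0 set to the bound. Without HyB replicate 1 the medians were -0.20 and -0.85, with 6 copies lower and 2 higher. TMM scaling, with a median of -1.09 over all TE copies, gave 8 lower and 4 higher.

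Between the N001 stages no copy passed the edgeR test for mRNA. For primordium against mycelium the count was 0 of 36 by edgeR (4 at an unadjusted p under 0.05) and 1 by DESeq2, beside 0.467% higher and 2.34% lower (2.8% in either direction) over all TE copies tested. For fruitbody against primordium it was 0 by edgeR (1 at an unadjusted p under 0.05) and 0 by DESeq2, beside 0% in either direction over all TE copies. A p that misses the threshold does not show that the stages were alike.

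A small set of copies had little or no methylation wherever it was measured, and several of these were transcribed in every group. Methylation was under 5% in all 14 libraries for 22 of the 165 copies with full values, 5 of them at least 500 bases long. These 5 were Gypsy_38 on scaffold 5 and 4 Gypsy_10 copies of 1515 to 1559 bases on scaffolds 1, 7, 8 and 9. The Gypsy_10 copy on scaffold 9 had between 0 and 1.13% methylation in every library. The Gypsy_10 copy on scaffold 8 (26555 to 28070) had 4.82, 8.32 and 5.63 RPM of mRNA in PC15, 5.28, 2.95 and 3.94 in HyB and 9.24, 1.56 and 1.88 in primordium, and 0.242, 0.450 and 0.358 RPM in PC9. Its PC9 libraries lay below all others (log2 difference from PC15 of -4.14 ± 0.783, edgeR, BH-adjusted p = 1.76e-05). Of the 22 copies, 8 had an mRNA read in every one of the 9 N001 mRNA libraries, and 7 of the 143 remaining copies with full values did. Small RNA was near 0 at the Gypsy_38 copy on scaffold 5, where the highest library held 2.28 RPM.

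Small RNA of the 222 copies did not follow the order of their mRNA. The sums were 8649, 6889 and 6639 RPM in PC15 and 34566, 14890 and 14810 RPM in PC9. In HyB they were 4663, 9749 and 9630 RPM. The N001 means were 12615 ± 4628 RPM in mycelium, 16750 ± 799 RPM in primordium and 19819 ± 2996 RPM in fruitbody (SD, n = 3). PC9 libraries thus lay above all PC15 libraries, the reverse of the mRNA order. As a share of all TE small RNA, the copies held 1.09% in PC15, 17.6% in PC9, 1.33% in HyB and 4.15% to 5.24% in N001. By library the PC9 share was 10.7%, 21.5% and 20.6%.

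A single short copy carried most of this signal in PC9 and N001. The Gypsy_3 copy of 587 bases on scaffold 6 (2645656 to 2646243) had 19317, 14065 and 13979 RPM of small RNA in PC9, from 140130 reads, although it has no PC9 methylation value. In PC15 it had 21.2, 3.12 and 3.32 RPM. HyB libraries held 1483, 2437 and 3497 RPM, and N001 libraries held 5063 to 9012 RPM in mycelium, 8913 to 9778 in primordium and 11699 to 17146 in fruitbody. No library of another group overlapped PC15. The difference from PC15 was 10.66 ± 1.08 in PC9 and 7.99 ± 0.977 in HyB on the log2 scale (edgeR, BH-adjusted p = 4.32e-06 and 5.63e-05).

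That copy made up 81.6% of the copies' small RNA in PC9 (55.9% to 94.5% by library) and 0.114% in PC15. It made up 31.04% in HyB, 50.8% in N001 mycelium, 56.6% in primordium and 67.8% in fruitbody. Without it the PC9 sums were between 825 and 15250 RPM and the PC15 sums between 6636 and 8628 RPM, so the PC9 libraries no longer lay above PC15 except replicate 1. Its mRNA showed the opposite pattern, with reads in PC15 and at most 1 read in any library of the other groups. Methylation of this copy was 28.8% ± 1.72 in PC15, 40.0% ± 1.92 in HyB, 69.2% ± 0.475 in N001 mycelium, 70.8% ± 0.236 (n = 2) in primordium and 68.4% ± 2.58 in fruitbody (SD, n = 3 except primordium). The rise from PC15 to HyB was 11.2 percentage points ± 1.44 (limma, BH-adjusted p = 5.41e-05).

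Some Gypsy_7 copies, which had no methylation value in any group, also had more small RNA in HyB and N001 than in PC15. Gypsy_7 of 943 bases on scaffold 9 (1186758 to 1187701) had 0 small RNA reads in PC15, 142, 0 and 0 RPM in PC9, 16.5, 407 and 345 RPM in HyB, and 672, 919 and 1240 RPM in fruitbody. HyB was at least 198-fold and fruitbody at least 729-fold above the PC15 floor of 3 reads. The second copy of that length on scaffold 9 (1118697 to 1119640) was at least 142-fold and at least 817-fold above the floor. All its PC9 reads were in replicate 1 (117, 0 and 0 RPM).

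Gypsy_7 of 612 bases on scaffold 2 (2314269 to 2314881) had 11.4, 0 and 0 RPM in PC15, 2074, 24.3 and 55.0 RPM in PC9, 24.8, 105 and 161 RPM in HyB and 925, 1454 and 1338 RPM in primordium. The other copies of 612 bases lie on the same scaffold (2128993 to 2129605 and 2204239 to 2204851) and had 0 reads in PC15. Together the 14 Gypsy_7 copies had 19.5 ± 14.4 RPM of small RNA in PC15, 619 ± 391 in HyB and 3827 ± 764 in primordium (SD, n = 3). The other Gypsy_7 copies, with a PC9 value, had 1328 ± 303 RPM in PC15 and 19391 ± 432 RPM in primordium. Several of these copies share a length, and how reads matching several copies were assigned is not given in the sources used here.

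**Figure D3:**
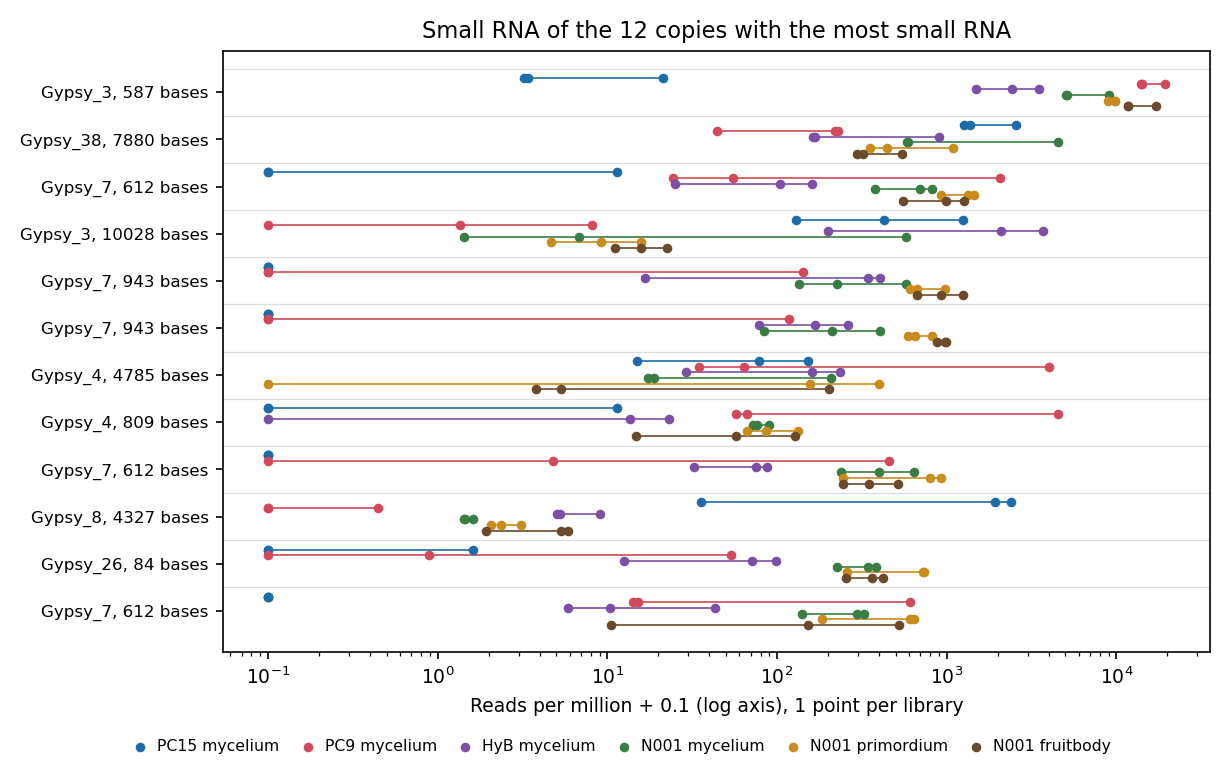
Small RNA of the 12 copies with the highest mean level over the 6 groups, in RPM plus 0.1 on a log axis, with 1 point per library, coloured by group. Gypsy_3 of 587 bases and the Gypsy_7 copies (3 copies share a length of 612 bases and 2 a length of 943) have PC15 at or near the left edge, while Gypsy_8 of 4327 bases has PC15 at the far right.

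Some very short copies also had their small RNA mainly in the dikaryons. Gypsy_26 of 84 bases on scaffold 4 (475774 to 475858) had 1.52, 0 and 0 RPM of small RNA in PC15, 53.8, 0.784 and 0 RPM in PC9, 12.4, 71.0 and 98.1 RPM in HyB and 257, 730 and 725 RPM in primordium (HyB against PC15, log2 difference 6.26 ± 1.69, edgeR, BH-adjusted p = 0.0139). Gypsy_8 of 19 bases on scaffold 2 (1753244 to 1753263) had 4.96, 60.7 and 87.3 RPM in HyB against 0.759, 0 and 0 RPM in PC15. Gypsy_9 of 21 bases on scaffold 7 (1822507 to 1822528) had 22.7, 41.1 and 41.6 RPM in N001 mycelium and 0 reads in PC9. A listed length of 19 or 21 bases is within the size of a small RNA itself.

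In Gypsy_4, 2 copies had far more small RNA in PC9 replicate 1 than in any other library. Gypsy_4 of 809 bases on scaffold 11 (1354602 to 1355411) had 4533, 57.2 and 66.2 RPM in PC9 and 11.4, 0 and 0 RPM in PC15, with no mRNA read in any library. All PC9 libraries lay above PC15 (log2 difference 8.48 ± 2.07, edgeR, BH-adjusted p = 0.00344). Without PC9 replicate 1 the log2 difference was 3.78 ± 1.33 (edgeR, BH-adjusted p = 0.0231). Its methylation stayed between 0 and 12.3% in the 14 libraries. Gypsy_4 of 4785 bases on scaffold 11 (1400933 to 1405718) had 3984, 34.5 and 63.7 RPM in PC9 and 78.2, 153 and 14.95 RPM in PC15. Those groups overlapped, and the difference did not pass the test (edgeR, BH-adjusted p = 0.0997). Without PC9 replicate 1 its log2 difference was -0.74 ± 1.71 (edgeR, BH-adjusted p = 0.727), in place of 4.05 with it.

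Several long copies had their small RNA mainly in PC15. Gypsy_12 of 18249 bases on scaffold 3 had 631, 669 and 688 RPM in PC15, 0.348, 1.57 and 1.25 RPM in PC9 and 9.10, 29.7 and 28.8 RPM in HyB. It fell by 9.30 ± 1.17 in PC9 and by 4.87 ± 0.940 in HyB on the log2 scale (edgeR, BH-adjusted p = 3.07e-05 and 0.001595). Gypsy_8 of 4327 bases on scaffold 5 (2975270 to 2979597) had 35.7, 2380 and 1932 RPM in PC15 and 2 reads in PC9, so the PC15 libraries differed widely among themselves (log2 difference -12.14 ± 1.62, edgeR, BH-adjusted p = 3.07e-05). The Gypsy_8 copy of 11694 bases on scaffold 3 had 1450, 62.5 and 86.4 RPM in PC15, and in PC9 1 library had 0.348 RPM and the others 0. Gypsy_12 on scaffold 7, the copy with the most mRNA, had 172, 125 and 174 RPM in PC15 and 0 small RNA reads in PC9, at least 420-fold lower. Gypsy_43 of 72 bases on scaffold 6 (55065 to 55137) had 33.4, 78.1 and 73.1 RPM in PC15 and 0 reads in HyB (edgeR, BH-adjusted p = 0.00382, and 0.0885 by DESeq2).

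Of the 222 copies 78 passed the small RNA filter, 7 of them through PC15 alone and 2 through PC9 alone, and 144 were not tested. In PC9 against PC15, 19 of the 78 were higher and 22 lower, beside 16.9% higher and 29.4% lower (46.3% in either direction) among all 633 TE copies tested. For 12 of these 41 the groups overlapped. A copy that passed through 1 monokaryon alone was bound to be high there, and these 9 copies gave 6 of the falls and 1 rise. Of the 69 others, 18 were higher and 16 lower (26.1% and 23.2%). Beside them, 17.1% were higher and 28.8% lower over the TE copies that did not pass through 1 monokaryon alone. The median log2 difference was 0.28 for the 78 (0.20 with copies at 0 set to the bound) and -1.14 for all TE copies (-1.18 with the bound). Without PC9 replicate 1, 9 copies were higher and 30 lower, and the medians were -3.49 for the copies tested and -3.43 for all TE copies, so the sign of the copies' median rested on that library. Without PC15 replicate 1 the median was -0.25. TMM scaling inside the TE table gave 24 higher and 11 lower, and TMM factors from the gene table gave 19 higher and 15 lower, with medians of all TE copies of 0.48 and -0.36.

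In HyB against PC15, 15 of the 78 were higher and 7 lower, beside 19.6% higher and 3% lower (22.6% in either direction) over all TE copies tested. The count of 22 fell to 13 or 14 without any 1 of the PC15 libraries or without HyB replicate 3. The 9 copies that passed the filter through 1 monokaryon alone gave 3 of the 7 falls and 0 rises. Of the 69 others, 15 were higher and 4 lower. Beside them, 20.4% were higher and 2.14% lower over the TE copies that did not pass through 1 monokaryon alone. The median log2 difference of the 78 was 1.61 (1.06 with the bound) and that of all TE copies was 0.91 (0.82 with the bound). Among the copies that rose was Gypsy_9 on scaffold 6 (2672191 to 2672568), with 66.1, 168 and 247 RPM in HyB and 0 reads in PC15, at least 133-fold higher. In N001 mycelium this copy was back at 0, 1.33 and 2.68 RPM (log2 difference from HyB of -6.76 ± 1.53, edgeR, BH-adjusted p = 0.00939). Without N001 mycelium replicate 2 that adjusted p was 0.0718.

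N001 mycelium differed from HyB in 4 of the 78 copies, 1 higher and 3 lower, beside 1.11% higher and 14.8% lower (16% in either direction) over all TE copies tested. Besides Gypsy_9 the lower ones were Gypsy_32 on scaffold 6, at 10.6, 7.96 and 4.02 RPM against 195, 160 and 150 RPM in HyB (log2 difference -4.47 ± 1.02, edgeR, BH-adjusted p = 0.00873), and Gypsy_38 on scaffold 11 (507852 to 508415), at 0 against 1.65, 30.98 and 72.0 RPM. Gypsy_47 on scaffold 10 (1529059 to 1529124), a fragment of 65 bases, was the higher one, with 37.9, 19.9 and 20.1 RPM against 0, 1.29 and 0.900 RPM (edgeR, BH-adjusted p = 0.0161). That call was lost without HyB replicate 1 (BH-adjusted p = 0.0571), without N001 mycelium replicate 1 (0.0502) or replicate 2 (0.0516), and with TMM factors from the gene table (0.0830). Gypsy_32 thus fell in both mRNA and small RNA from HyB to N001 mycelium, though its small RNA call was lost without N001 mycelium replicate 2. Leaving out N001 mycelium replicate 2 gave a count of 0 and leaving out replicate 3 a count of 2, the call of Gypsy_38 on scaffold 11 was lost without any 1 of the N001 mycelium libraries, and TMM scaling inside the TE table made 9 calls, 5 higher and 4 lower.

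Between the N001 stages the small RNA count was 0 of 78 in both comparisons by edgeR, with 7 and 6 copies at an unadjusted p under 0.05 and 1 and 0 calls by DESeq2 for primordium against mycelium and fruitbody against primordium. Over all TE copies tested the share called was also 0% in each direction.

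CG methylation of the 165 copies with full values was about as high in HyB as in PC15 and rose in N001. The median copy had 25.3%, 25.3% and 27.1% methylation in the PC15 libraries and 26.6%, 26.6% and 24.5% in the HyB libraries. In N001 the medians were 53.2%, 50.2% and 53.2% in mycelium, 53.8% and 54.8% in primordium, and 53.6%, 53.4% and 53.5% in fruitbody, all above every PC15 and HyB library. The other 458 Gypsy copies with full values went from 22.9% ± 0.470 in PC15 to 27.9% ± 0.864 in HyB and 55.3% ± 1.12 in N001 mycelium (SD of library medians, n = 3). The bisulfite coverage behind each level is unknown.

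Methylation did not change steadily with length. Copies under 100 bases had medians of 34.0% in PC15 and 79.8% in N001 mycelium (33 copies), those of 100 to under 500 bases had 27.1% and 43.5% (75 copies), and those of 500 bases or more had 24.7% and 54.5% (57 copies). The typical spread between replicates was larger for the short ones, with a median SD of 3.90 percentage points against 3.27 and 2.10 in the longer classes. Among the other Gypsy copies the 41 under 100 bases had medians of 0.364% in PC15 and 1.17% in N001 mycelium, and the 308 of 500 bases or more had 24.7% and 58.0%.

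HyB differed from PC15 in both directions. By limma with BH adjustment, 28 of the 165 copies were higher and 24 lower, beside 40.4% higher and 11% lower (51.5% in either direction) over all 960 TE copies tested. Of the other Gypsy copies, 218 of 458 were higher and 43 lower. The median difference was 1.19 percentage points for the 165 copies, 5.12 for the other Gypsy copies and 3.46 for all TE copies. The difference between the 2 sets of copies was not tested.

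Copies of at least 4000 bases went both ways in HyB, with 6 of 13 called higher and 3 lower. The lower ones were Gypsy_32, Gypsy_12 on scaffold 7 and Gypsy_3, which are 3 of the 4 copies with the most mRNA. Gypsy_32 on scaffold 6 had 18.5%, 19.6% and 19.9% methylation in PC15 and 10.8%, 8.34% and 8.65% in HyB, a fall of 10.1 percentage points (SE 1.21, limma, BH-adjusted p = 3.17e-05). Gypsy_12 on scaffold 7 fell from 14.7% ± 0.678 to 7.44% ± 0.782 (SD, n = 3; limma, BH-adjusted p = 8.57e-05), and Gypsy_3 of 10028 bases fell from 27.1% ± 1.62 to 18.3% ± 2.68 (limma, BH-adjusted p = 0.000573). Gypsy_38 on scaffold 4 rose, from 18.5% ± 0.518 to 35.7% ± 1.18 (limma, BH-adjusted p = 9.53e-08). Gypsy_28 on scaffold 3 (261029 to 270056) rose from 24.9% ± 0.682 to 33.7% ± 1.42 (SD, n = 3; limma, BH-adjusted p = 3.58e-05). The other 4 that rose were Gypsy_12 on scaffold 3, from 27.2% to 33.8%, the Gypsy_8 copies of 11694 and 11693 bases, from 27.0% to 39.1% and from 31.1% to 38.5%, and Gypsy_4 of 4785 bases, by 12.7 percentage points to 34.7% (group means).

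The 2 largest called rises and the 2 largest called falls without overlap between groups were all in copies under 500 bases. Gypsy_17 of 73 bases on scaffold 1 (4250530 to 4250603) rose from 45.8%, 44% and 43% in PC15 to 100%, 100% and 88% in HyB (limma, BH-adjusted p = 1.56e-07). Gypsy_35 of 27 bases on scaffold 7 (2723401 to 2723428) fell from 60%, 63.5% and 66.5% to 22.5%, 23% and 13% (limma, BH-adjusted p = 8.43e-07). Gypsy_43 of 243 bases on scaffold 9 (911027 to 911270) rose from 27%, 25.8% and 24.5% to 49.5%, 67% and 68.7% (limma, BH-adjusted p = 4.32e-05). Gypsy_37 of 133 bases on scaffold 7 (1812208 to 1812341) fell from 41.1%, 37.95% and 38.9% to 13.4%, 8.89% and 14.9% (limma, BH-adjusted p = 4.395e-05). Short copies can hold only a few CG sites. A longer copy, Gypsy_15 of 1368 bases on scaffold 7 (873721 to 875089), rose by 30.7 percentage points, from 42.5% ± 1.85 to 73.2% ± 1.64 (SD, n = 3; limma, BH-adjusted p = 3.74e-08).

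**Figure D4:**
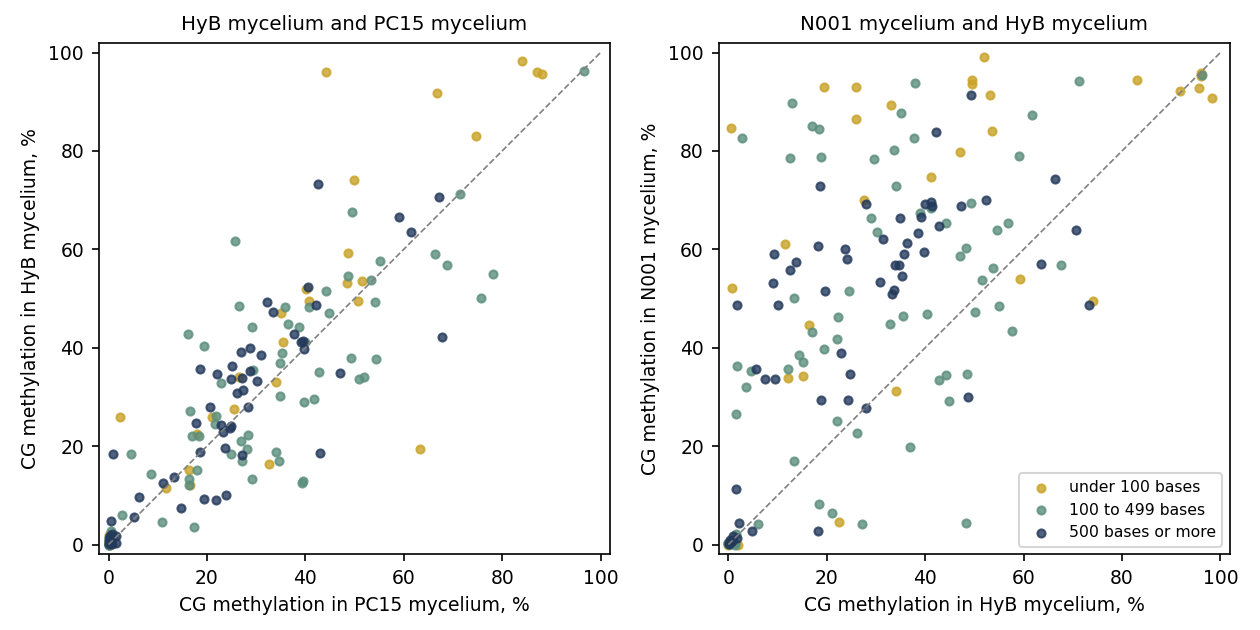
CG methylation of the 165 copies with a value in all 14 libraries, as group means in percent, for HyB against PC15 (left) and N001 mycelium against HyB (right), with 1 point per copy coloured by length and a dashed line of equal values. Points lie on both sides of the line on the left, and 98 copies were called higher and 12 lower on the right.

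N001 mycelium was more methylated than HyB for most copies, with 98 of 165 higher and 12 lower, beside 74.8% higher and 3.75% lower (78.5% in either direction) over all TE copies tested. The median difference was 19.6 percentage points, and 20.9 over all TE copies. Gypsy_32 on scaffold 6 rose from 9.26% ± 1.33 to 59.0% ± 1.08 (limma, BH-adjusted p = 3.11e-11), and its mRNA and small RNA fell in the same comparison. The small RNA call was lost without N001 mycelium replicate 2. Gypsy_12 on scaffold 7 rose from 7.44% ± 0.782 to 33.6% ± 1.69 (limma, BH-adjusted p = 3.63e-10) with no called change of its mRNA. Gypsy_3 of 10028 bases reached 60.7% ± 0.895 (SD, n = 3).

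At the extremes, Gypsy_9 of 52 bases on scaffold 7 (173354 to 173406) went from 1.5%, 0% and 0% in HyB to 91.5%, 80.5% and 82% in N001 mycelium (limma, BH-adjusted p = 2.38e-10). Gypsy_7 of 219 bases on scaffold 11 (498544 to 498763) went down, from 64%, 60% and 21% to 6.5%, 0% and 6.5% (limma, BH-adjusted p = 0.00183), and stayed between 0 and 25.5% in the later stages. Its HyB libraries varied widely. Gypsy_17 of 165 bases on scaffold 10 (1342717 to 1342882) rose from 2%, 6.5% and 0% to 88.5%, 69% and 90.5% (limma, BH-adjusted p = 2.83e-08). Gypsy_17 of 43 bases on scaffold 8 (339652 to 339695) fell from 82%, 65.8% and 74.8% to 55.2%, 46.2% and 47% (limma, BH-adjusted p = 3.96e-05).

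Among copies of at least 500 bases, the most methylated over the 14 libraries were Gypsy_18 on scaffold 11 (864455 to 865757), Gypsy_4 on scaffold 1 (3643224 to 3644572) and Gypsy_16 on scaffold 10 (1340379 to 1341676). Gypsy_16 had 59.0% in PC15, 66.5% in HyB and 74.3% in N001 mycelium as group means, and its replicates lay close together. Gypsy_4 had 54.5%, 65.5% and 83.5% in PC15 and 23.5%, 28.5% and 74.5% in HyB, so its replicates overlapped between groups.

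Across the N001 stages 0 of the 165 copies passed the limma test, with 16 at an unadjusted p under 0.05 for primordium against mycelium and 8 for fruitbody against primordium. Over all TE copies tested the share called was 0.104% higher and 0% lower in the first comparison and 0% higher and 0.104% lower in the second.

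Genes beside the copies were examined by the same PC9 columns. Of the 95 genes that overlap or lie within 1 kb of the 222 copies, 92 had a methylation value in the 14 other libraries, and 20 of these (21.7%) had none in PC9. These genes overlap or adjoin copies chosen by the same columns, so the share partly restates how the copies were chosen and is given as a description. It was 14.4% (27 of 188) for genes near the other Gypsy copies, and 3.82% for genes not near a TE copy. Within 5 kb it was 16.1% near the 222 copies, 8.84% near them with no TE copy outside the 222 in that distance, and 10.8% near the other Gypsy copies. An RPKM (a read count divided by gene length and library depth) of 0 in all PC9 libraries was listed for 30.5% of the 95 genes and in all PC15 libraries for 7.37%. Near the other Gypsy copies these shares were 30.4% and 5.15%. They were 5.52% and 1.66% for genes not within 1 kb of a TE copy, and 6.47% and 1.87% over all genes.

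Of the 60 such genes that passed a minimum RPKM, 29 were lower and 7 higher in PC9 than in PC15 by limma on log2(RPKM + 1) with BH adjustment, beside 30.6% lower and 16.1% higher (46.8% in either direction) over all 10928 genes tested. For genes near the other Gypsy copies it was 75 of 139 lower and 18 higher. A gene could pass the minimum through the PC15 libraries alone and was then bound to be high there. Genes were not split by this route. The median log2 difference was -0.54 near the 222 copies, -0.92 near the other Gypsy copies and -0.23 over all genes.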

How the data were processed

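The 53 libraries (18 mRNA, 18 small RNA, 17 bisulfite) came with 3 biological replicates per group per the series description (the labels also spell N001 as N0001). Whether they were equally independent was not tested. Replicates 2 and 3 often lay closer to each other than to replicate 1. By replicate, small RNA sums of the described copies were 8649, 6889 and 6639 RPM in PC15 and 34566, 14890 and 14810 RPM in PC9. HyB had 4663, 9749 and 9630 RPM, and N001 mycelium 17959, 10004 and 9884 RPM. Fruitbody, with 19001, 23139 and 17318 RPM, did not show this. SDs and tests count replicates as independent. TE mRNA and small RNA were deposited as read counts, gene mRNA as RPKM and CG methylation as a fraction from 0 to 1, per the file headers. Fractions were turned into percent. Per the submitters' processing notes, mRNA was processed with FastQC and STAR 2.3.16, and bisulfite reads with FastQC and BS-Seeker2. The genome build, annotation, counting program and treatment of reads with several matches are not given in the sources used here. Coordinates are those of the deposited tables, and lengths are end minus start.

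The RPKM values gave whole reads within 0.01 for 95.5% to 95.8% of values per library, and hence the mRNA totals. Small RNA totals are gene plus TE reads. Counts were tested by edgeR 4.0.16 (quasi-likelihood, library totals as sizes without TMM, default filter by expression, all 18 libraries, group as the only term). Methylation percentages of TE copies with all 14 values were tested by limma 3.58.1 with a trend, and genes on log2(RPKM + 1) where RPKM reached 1 in at least 3 libraries, in R 4.3.3. P-values were BH-adjusted over all TE copies or genes tested, two-sided, with a threshold of 0.05. The floor for a group at 0 was 3 reads over the group, and covers counting error only. Scripts were tested on simulated data.

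The members, lists and tests were chosen with earlier results of these data known. Named copies were the 6 with the most mRNA or small RNA per length, the 4 with the most in PC9, the 5 longest, the 3 most and 3 least methylated of at least 500 bases, families with at least 10 members, and in each comparison up to 2 called copies that rose most and 2 that fell most, with no overlap between groups, and runs of at least 3 neighbours. Gypsy_38 on scaffold 4, the other long copies with a methylation call, Gypsy_15 on scaffold 7 and the relations between methylation, mRNA and small RNA were picked after their values were seen. Same-numbered libraries deviated together for TE mRNA in N001 mycelium against HyB (correlation of same-numbered deviations 0.220 to 0.338). The same held for primordium against mycelium (0.100 to 0.375) and fruitbody against primordium (0.190 to 0.466). Every pair there exceeded 0.1. TE methylation in fruitbody against primordium had 0.668 and 0.486, for replicates 1 and 2. Printed p-values did not use such pairs, since group was the only term, and the replicate block was an alternative. Any pairing comes from the data, since the labels give only the numbers. Alternatives were other scalings, filters, DESeq2 1.42.0, the replicate block, merged near-identical libraries and leaving out each library. Counts without copies that passed the filter through 1 monokaryon alone, and sums without the 4 copies with the most mRNA, were chosen after seeing the data. Gene numbers carry no names in the sources used here, so no marker of tissue was checked.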

Additional observations from a re-analysis of the deposited data

How the results depend on the processing

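Main counts of the 222 copies called (or of genes near them) were compared with each alternative. Without a filter on low counts, mRNA calls were 67 in place of 31 (PC9 against PC15) and 50 in place of 21 (HyB against PC15), since more copies were tested. Leaving out HyB replicate 1 gave 32 of the latter. Small RNA calls in HyB against PC15 were 13 in place of 22 with TMM factors from the gene table. In N001 mycelium against HyB they were 9 with TMM inside the TE table and 9 with DESeq2 in place of 4. DESeq2 called 1 copy in place of 0 for primordium against mycelium in each read table. Genes within 5 kb in place of 1 kb gave 139 calls in place of 36, since more genes were counted. The cause was not tested for the others. Leaving out each library gave 31 to 37 and 20 to 32 mRNA calls in PC9 and HyB against PC15, 8 to 13 in N001 mycelium against HyB, 29 to 39, 13 to 24 and 0 to 5 small RNA calls in the same order, 43 to 56 and 107 to 111 methylation calls in HyB against PC15 and N001 mycelium against HyB, and 29 to 33 gene calls. Of 322 values of named copies under alternatives, 308 kept direction and side of the threshold, 14 lost the call and 0 reversed. With the replicate block, mRNA calls were 31, 24 and 11, small RNA calls 36, 19 and 5, methylation calls 53 and 112 and gene calls 36, and the 0 counts between stages stayed at 0. Where same-numbered libraries deviated together the block changed no count. Counting HyB replicates 2 and 3, and primordium replicates 2 and 3, as 1 sample each gave 38, 26 and 12 mRNA calls. How alike these merged libraries were is not given here. Low counts limit most copies: 186 of 222 were not tested for mRNA and 144 for small RNA. Methylation coverage is unknown.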
